A study of Mus musculus with 28 samples.

Results

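The collagen genes of the mouse were followed through 4 tissue comparisons of mice that expressed human APOBEC3B (A3B) and their controls. Members were taken by name, as every gene whose symbol is Col, a number, the letter a and a number (Col1a1, Col4a2 and so on). This rule found 44 genes among the 35928 genes of the liver and pancreas files, and the same 44 among the 24845 genes of a second table with liver and lung. The rule itself uses the name of a gene only.

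A3B is a human cytidine deaminase of the APOBEC3 family. The A3B mice held the human cDNA, fused to tGFP and driven by a tetracycline operator (TetO), in the Col1a1 ("ColA1") locus of an embryonic stem cell line (KH2), together with CAGs-rtTA3, a transactivator expressed broadly in adult tissue. The M2-rtTA allele of the stem cells, in Rosa26, had been bred out. Feeding with doxycycline switches the transgene on, and mice were adults at the start. RNA was sequenced from whole snap-frozen tissue in 28 samples of 2 sets. In the set called set 2 here, 6 A3B livers were compared with 2 control livers and 6 A3B pancreases with 2 control pancreases, all after 10 days of doxycycline according to the labels. A passage of the study describes its control animals as not fed doxycycline, so whether feeding differed between these groups is not settled. In set 1, 3 A3B livers were compared with 3 control livers and 3 A3B lungs with 3 control lungs. The labels give 14 days for A3B livers 23 and 28, 10 days for A3B liver 70 and the A3B lungs, and 15 days for the controls of set 1, so length of feeding and group cannot be told apart there.

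The labels give most controls the A3B allele without the driver, so the altered Col1a1 locus was present in these controls as well. Control lung 87 was labelled as carrying the driver alone. Samples were grouped by their titles, because the genotype labels went against the titles in several samples. Control liver 11 and control pancreases 45 and 168 were labelled with both transgenes, while A3B pancreases 44 and 137 were labelled with the A3B allele alone, and the livers of the same mice 44, 137, 45 and 168 carried the opposite label. In set 1 the human A3B row reached 705 to 1705 TPM (a share of all transcripts, corrected for transcript length) in A3B livers and 90.6 to 281 TPM in A3B lungs, against at most 0.144 TPM in control livers and 0.526 TPM in control lungs. That row was not analysed in set 2. In set 2, 7 mice gave both tissues.

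Estimated counts per library in set 2 ran from 65161064 to 118976013. The depth of set 1 is unknown because only TPM values were given. A few libraries stood apart. The scaling factors of edgeR (TMM, trimmed mean of M values) were 0.210 and 0.443 in the control pancreases and 1.30 to 1.79 in the A3B pancreases. Of 10 acinar markers, mostly enzymes of the exocrine pancreas, the summed level was 372600 to 378600 TPM in control and 63090 to 170200 TPM in A3B pancreases. Tissue identity followed the labels, since hepatocyte markers summed to at least 34070 TPM in every liver of set 2 and lung epithelial markers to at least 16670 TPM in every lung. A3B liver 48 held the lowest sums of endothelial (34.0 TPM) and leukocyte markers (15.1 TPM) among livers of set 2. In bulk tissue, fewer cells of a type and less RNA per cell cannot be told apart.

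Collagens are built from 3 alpha chains wound into a triple helix, and each gene here encodes a single chain. Fibrillar chains (types I, II, III, V, XI, XXIV and XXVII) form the cables of connective tissue and are made mainly by fibroblasts and, in liver and pancreas, by stellate cells. Type IV chains form the sheet of basement membranes under epithelium and around vessels, and types XV and XVIII are attached to that sheet. Type VI makes beaded filaments that join fibrils to basement membranes, types IX, XII, XIV, XVI, XIX, XX and XXII decorate fibrils, and type VII anchors the epidermal basement membrane to the dermis. The 44 genes comprised 11 fibrillar, 8 basement membrane (6 of them type IV) and 25 other chains.

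The chains of type IV collagen lie in head-to-head pairs. Col4a1 (chr8:11198423-11312826, minus strand, GRCm38) and Col4a2 (chr8:11312805-11449287, plus strand) are such a pair, and their 5′ ends overlap. The windows of 300 bases around each start, from RefSeq on GRCm38.p6, are shown because these genes were called together in pancreas and in lung. The Col4a1 window is chr8:11312777-11313076 on the minus strand and that of Col4a2 is chr8:11312555-11312854 on the plus strand. Capitals mark the 78 bases that both windows share.
Col4a1: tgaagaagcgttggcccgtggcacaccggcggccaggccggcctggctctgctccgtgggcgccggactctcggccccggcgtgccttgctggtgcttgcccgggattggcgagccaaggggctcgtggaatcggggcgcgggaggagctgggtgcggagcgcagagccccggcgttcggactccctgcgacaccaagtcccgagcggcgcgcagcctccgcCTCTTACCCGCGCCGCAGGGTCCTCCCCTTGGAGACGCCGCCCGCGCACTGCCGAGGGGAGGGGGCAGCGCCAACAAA
Col4a2: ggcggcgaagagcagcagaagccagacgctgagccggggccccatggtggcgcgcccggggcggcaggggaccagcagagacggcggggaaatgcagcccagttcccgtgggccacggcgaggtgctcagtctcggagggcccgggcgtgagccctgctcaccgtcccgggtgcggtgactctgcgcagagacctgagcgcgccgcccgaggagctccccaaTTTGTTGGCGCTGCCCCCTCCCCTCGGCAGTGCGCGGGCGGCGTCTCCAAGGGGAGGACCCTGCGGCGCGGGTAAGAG

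The 2 windows of Col18a1, a proteoglycan of basement membranes whose C-terminal fragment is endostatin, are shown because its starts were used differently in liver and pancreas. The gene has a distal start, for the short form, and an internal start, which encodes longer N-terminal ends and is known for its use in hepatocytes. The distal window is chr10:77166481-77166780 and the internal window is chr10:77113656-77113955, both on the minus strand of GRCm38.p6 from RefSeq. Capitals mark the motif GGGCGG, searched on both strands, with CCGCCC as its form on the other strand.
Col18a1 distal start: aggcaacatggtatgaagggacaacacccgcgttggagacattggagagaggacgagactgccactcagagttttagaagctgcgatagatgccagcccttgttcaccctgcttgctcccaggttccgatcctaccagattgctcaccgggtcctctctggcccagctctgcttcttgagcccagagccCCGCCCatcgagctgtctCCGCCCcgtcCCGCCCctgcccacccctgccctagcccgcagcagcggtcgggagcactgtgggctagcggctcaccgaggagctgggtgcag
Col18a1 internal start: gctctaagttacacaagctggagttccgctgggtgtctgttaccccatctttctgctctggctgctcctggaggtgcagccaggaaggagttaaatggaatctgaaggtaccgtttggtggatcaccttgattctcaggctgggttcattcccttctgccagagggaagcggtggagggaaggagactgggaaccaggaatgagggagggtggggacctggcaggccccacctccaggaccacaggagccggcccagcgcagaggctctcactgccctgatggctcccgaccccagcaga

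The distal window held 3 matches and the internal window none. RefSeq windows were matched for 35 of the 44 members, with 38 windows in all. GGGCGG was found in 60.5% of these 38 windows and in 35.7% of all 32851 windows of the same length. TATAAA, on either strand, was found in 13.2% of the members' windows and 13.6% of all windows, and CCAAT in 34.2% and 37.4%. A match describes letters only.

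Levels differed greatly between tissues (the plot of TPM by sample). In control livers of set 2, Col18a1 alone made up 81.7% of all collagen TPM, with a mean of 423 TPM, and the next chain, Col14a1, had a mean of 17.6 TPM. Among these tissues, only in liver was the chain with the highest mean a basement membrane chain. Control pancreases were led by Col3a1 (mean 35.3 TPM, 35.7% of collagen TPM), followed by Col7a1 with 17.6 TPM and Col4a1 with 5.80 TPM. In A3B pancreases, Col3a1 again led with 628 TPM and 43.7% of the sum, followed by Col1a2 (138 TPM), Col4a1 (125 TPM), Col1a1 (114.5 TPM) and Col4a2 (79.5 TPM). The order of Col1a2, Col4a1 and Col1a1 was within the spread between A3B samples. In lung, the chain with the highest mean was Col6a1, with 176 TPM in A3B and 164 TPM in control samples.

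**Figure D1:**
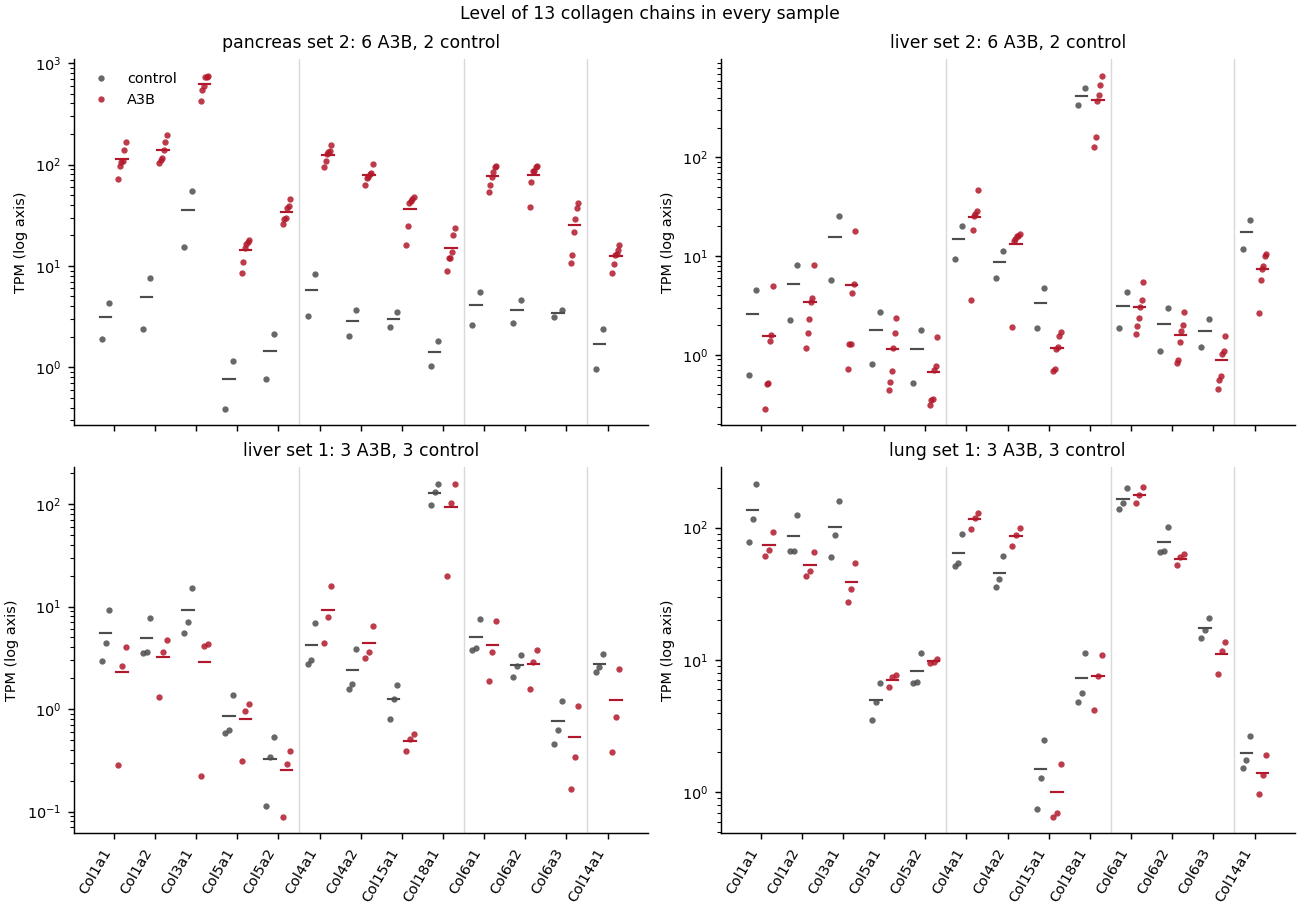
Level in TPM (log axis) of 13 collagen chains in each sample, in 4 panels for the tissues and sets; grey points are control samples, red points are A3B samples and lines are group means. In pancreas the A3B samples of Col1a1 lie between 72.1 and 166.5 TPM, above both controls at 1.90 and 4.35 TPM, whereas in the livers of set 2 the groups of Col1a1 overlap.

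In pancreas, 12 collagen chains rose in A3B mice, among them Col1a1 and Col1a2 of type I, Col3a1 of type III and Col4a1 and Col4a2 of type IV. The fibrillar chains, Col1a1, Col1a2, Col3a1, Col5a1 and Col5a2, were 4.21 to 8.21 times higher after TMM scaling. Of 40 members tested, 12 (30.0%) were higher and 4 (10.0%) lower at an adjusted p under 0.05 (edgeR quasi-likelihood test, Benjamini-Hochberg adjustment over all 19142 genes tested). Among all genes tested, 17.0% were higher and 14.9% lower. The median log2 fold change of the members was 0.63 (0.58 without Col2a1, which had few reads), beside 0.09 for all genes, and it was 1.47 without control 168.

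By class, 5 of 10 fibrillar chains tested were higher and none lower, with a median log2 fold change of 2.09. Of 8 basement membrane chains, 4 were higher (Col4a1, Col4a2, Col15a1 and Col18a1) and none lower, with a median of 0.31. Of 22 other chains, 3 were higher (Col6a1, Col6a2 and Col16a1) and 4 lower, with a median of 0.50. Chains that share a trimer were called together: Col1a1 with Col1a2, Col5a1 with Col5a2, Col4a1 with Col4a2 and Col6a1 with Col6a2. Type VI also needs Col6a3, for which the log2 fold change was 0.97 and the test was not passed (adjusted p = 0.168). Col6a3 was called higher without A3B pancreas 125 (1.15, adjusted p = 0.0265). It was also called with scaling by totals (3.27) and with limma on TPM (2.42), under which most genes were called higher. In pancreas, 66.9% of the Col6a3 level was assigned to Col6a3-206, an annotated transcript with a retained intron.

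Col1a1 (chr11:94936224-94953042) encodes the main chain of type I collagen, the load-bearing fibril of most connective tissue. The level of Col1a1 was 72.1 TPM in the lowest, 106.4 in the median and 166.5 in the highest A3B pancreas, and 1.90 and 4.35 TPM in the control pancreases. Every A3B sample was above both controls. The difference was 3.04 ± 0.41 (log2 fold change ± SE, adjusted p = 0.000606), the largest increase among the members called. On the scale of TMM-normalised CPM (counts scaled to a common library size), A3B samples lay between 290.7 and 657.2 and both controls close to 51.0.

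Col1a2 (chr6:4504814-4541544) encodes the partner chain of type I collagen. It reached 104.2, 127.1 and 195 TPM in the lowest, median and highest A3B pancreas, against 2.39 and 7.55 TPM in controls, and rose by 2.85 ± 0.39 (adjusted p = 0.000678). The ratio of partner to main chain was not tested. Col5a2 (chr1:45374321-45503282), a chain of the type V collagen that sits in the core of type I fibrils, was at 25.7, 33.4 and 45.4 TPM in A3B and 0.771 and 2.13 TPM in control pancreases. Its log2 fold change was 2.47 ± 0.31 (adjusted p = 0.00041), the smallest adjusted p among the members in this tissue. Col5a1, the partner of Col5a2, rose by 2.10 ± 0.32 (adjusted p = 0.00102), from 0.392 and 1.16 TPM in controls to 8.55 TPM or more in A3B.

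Col3a1 (chr1:45311538-45349706), which forms the fine reticular fibrils of soft organs and lies beside Col5a2 in the genome, was the most abundant collagen message in the pancreas. Its values were 426.1, 659.4 and 751 TPM in the lowest, median and highest A3B sample and 15.4 and 55.1 TPM in controls. The groups did not overlap, and Col3a1 rose by 2.07 ± 0.39 (adjusted p = 0.00296). The control pancreases themselves differed more from each other in TPM than on the normalised scale, where they were at 283 and 378 CPM.

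Col4a2 and Col4a1 together form the type IV network found in nearly all basement membranes. Col4a2 was at 63.5, 78.7 and 100.1 TPM in A3B and 2.06 and 3.65 TPM in control pancreases, and rose by 2.54 ± 0.33 (adjusted p = 0.000512). Col4a1 was at 93.9, 130.2 and 154.2 TPM in A3B and 3.21 and 8.40 TPM in controls, and rose by 2.34 ± 0.32 (adjusted p = 0.000606). The remaining type IV chains, which occur in specialised basement membranes such as those of kidney, lung and eye, all had negative log2 fold changes between -1.02 and -0.50 and none passed the test. The rise therefore covered 2 of 6 type IV chains.

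Col15a1 and Col18a1, the proteoglycan collagens of basement membrane zones, rose by 1.75 ± 0.44 (adjusted p = 0.0138) and 1.12 ± 0.36 (adjusted p = 0.0352). Col15a1 was at 15.9 to 47.7 TPM in A3B and 2.51 and 3.54 TPM in control pancreases. Col18a1 was at 8.98 to 23.6 TPM in A3B and 1.02 and 1.83 TPM in controls. All A3B samples exceeded both controls for each gene. These calls and that of Col16a1 were the ones lost when 1 library was left out. The adjusted p of Col15a1 was 0.0740 without control 45 and 0.0674 without control 168, that of Col16a1 was 0.0685 without control 168, and that of Col18a1 was 0.0529 without A3B 49, 0.0982 without control 45 and 0.153 without control 168. The other 9 of the 12 stayed past the threshold in every such fit.

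The type VI genes Col6a2 and Col6a1, neighbours on chromosome 10, rose by 2.14 ± 0.39 (adjusted p = 0.00266) and 2.06 ± 0.31 (adjusted p = 0.00103). Type VI collagen links cells to the surrounding matrix. Col6a1 was at 54.0 to 96.6 TPM in A3B and 2.64 and 5.59 TPM in control pancreases. Col16a1, a fibril-associated chain, rose by 1.39 ± 0.34 (adjusted p = 0.0107), from 1.24 and 1.497 TPM to 6.88 TPM or more. For Col14a1, another fibril-associated chain, the log2 fold change of 0.69 did not pass the test (adjusted p = 0.0880), although its A3B values of 8.53 to 16.02 TPM lay above both controls at 0.969 and 2.40 TPM.

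Col7a1 (chr9:108953586-108984875), the anchoring fibril chain, was the only abundant member that fell. It was at 1.74, 5.18 and 24.3 TPM in the lowest, median and highest A3B pancreas and 17.0 and 18.2 TPM in controls. A3B pancreas 153 was above both controls in TPM, and the other 5 were below. On the TMM-normalised scale all 6 A3B samples, at 4.76 to 64.4 CPM, were below the controls at 148.9 and 228.1, with a log2 fold change of -3.03 ± 0.92 (adjusted p = 0.0387). In pancreas, 38.8% of the Col7a1 level was assigned to Col7a1-208, an annotated transcript with a retained intron. The call did not hold without control 45 (log2 fold change -2.68, adjusted p = 0.183), without control 168 (-3.29, adjusted p = 0.0945), without A3B 44, 49 or 125 (adjusted p = 0.0511, 0.0710 and 0.0544), with no filter on low counts (adjusted p = 0.0805), without both A3B pancreases with conflicting labels (adjusted p = 0.0526), or with limma on log2 TPM values (adjusted p = 0.132).

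Col6a4, Col25a1 and Col20a1 were also called lower, at means below 1 TPM in both groups. Their log2 fold changes were -3.66, -3.26 and -1.99. The first rested on control 168 (-0.02 without it, adjusted p = 0.988) and the second on control 45 (-0.93 without it, adjusted p = 0.503), and Col20a1 lost its call without control 45 (-1.53, adjusted p = 0.0950). Members that were not tested in pancreas, for low counts, were Col9a1, Col10a1, Col19a1 and Col24a1.

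The size of these differences depended on how the libraries were scaled. When libraries were scaled only by total counts, the all-gene median in pancreas moved from 0.09 to 2.29 on the log2 scale. The median of the members was then 2.80, and 28 of 40 members were higher and none lower. Among all 19142 genes tested, 13483 were higher and 210 lower in that fit, so this count did not set the members apart. Col1a1 had 5.21, Col3a1 4.18, Col7a1 -0.71 (adjusted p = 0.489) and Col20a1 0.35. In TPM, 30 of 40 members tested had all A3B samples above both controls, as did 70.8% of all genes tested, so a gap in TPM by itself did not set the members apart. The 12 members called higher were above both controls in all 6 A3B samples on the TMM-normalised scale as well. Without A3B pancreases 44 and 137, whose genotype labels lack the driver, 12 members were higher and 2 lower.

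Markers of several cell types were counted in pancreas, where 17.0% of all genes tested were higher and 14.9% lower. In TPM, 70.8% of all genes had every A3B sample above both controls, so sums without overlap do not set these markers apart. Median log2 fold changes were 0.24 for fibroblast, 0.34 for endothelial and 0.04 for ductal markers. They were -0.24 for leukocyte, -1.14 for mesothelial and -1.25 for myofibroblast and smooth muscle markers. Of the 10 acinar markers, 9 fell and none rose, though with scaling by totals 5 fell and 2 rose. Of 13 fibroblast and stellate cell markers 3 rose and 1 fell, and their summed level was 134 to 272 TPM in A3B and 27.4 to 79.4 TPM in control samples. Of 11 endothelial markers 2 rose and none fell, with sums of 214 to 285 and 22.8 to 48.6 TPM. Of 6 myofibroblast and smooth muscle markers none rose and 1 fell, and their sums overlapped, at 41.9 to 213 and 15.5 to 111 TPM. Of 9 leukocyte markers 4 rose and 1 fell, with sums of 204 to 456 and 5.72 to 62.5 TPM. Of 7 ductal markers 3 rose, Krt7 (3.03), Krt19 (2.33) and Epcam (1.10), and none fell, with sums of 430 to 884 and 68.1 to 103 TPM. The 5 mesothelial markers, which include Krt19, summed to 198 to 504 and 7.17 to 42.0 TPM, and of the 5 only Krt19 rose and only Upk3b fell (-2.38). No fibroblast, endothelial or leukocyte marker was under 0.1 TPM in all pancreases, and the part of any of these cells in the collagen result was not tested.

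Partners of collagen were counted from fixed lists. Of 31 enzymes and chaperones of collagen synthesis, 12 were higher and 4 lower in A3B pancreas. Fkbp10, a chaperone that helps procollagen fold and cross-link, rose by 2.51 ± 0.26 and Loxl1, a cross-linking oxidase, by 2.51 ± 0.33, whereas Ppib and P4hb, general folding enzymes of the endoplasmic reticulum that are also abundant in acinar cells, fell by 2.53 and 2.50 on the log2 scale. The direction of Ppib and P4hb was kept with scaling by totals, at -0.17 and -0.15, but the test was not passed. Of 10 receptors 4 were higher and 2 lower, with Ddr1, a collagen-binding kinase, at 1.99 ± 0.32, and Itga10, an integrin chain, at -2.12 but 0.03 with scaling by totals, and with an adjusted p of 0.0519 without control 168. Of 15 laminins and other basement membrane partners, 6 were higher and none lower, among them the laminin chains Lama5 (2.40) and Lamc1 (1.69) and the linker Nid1 (1.86). Of 15 proteoglycans and fibril binders, 8 were higher and none lower, among them Thbs1 (3.35), Bgn (3.11), Fbln2 (1.43) and Lum (1.42).

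**Figure D2:**
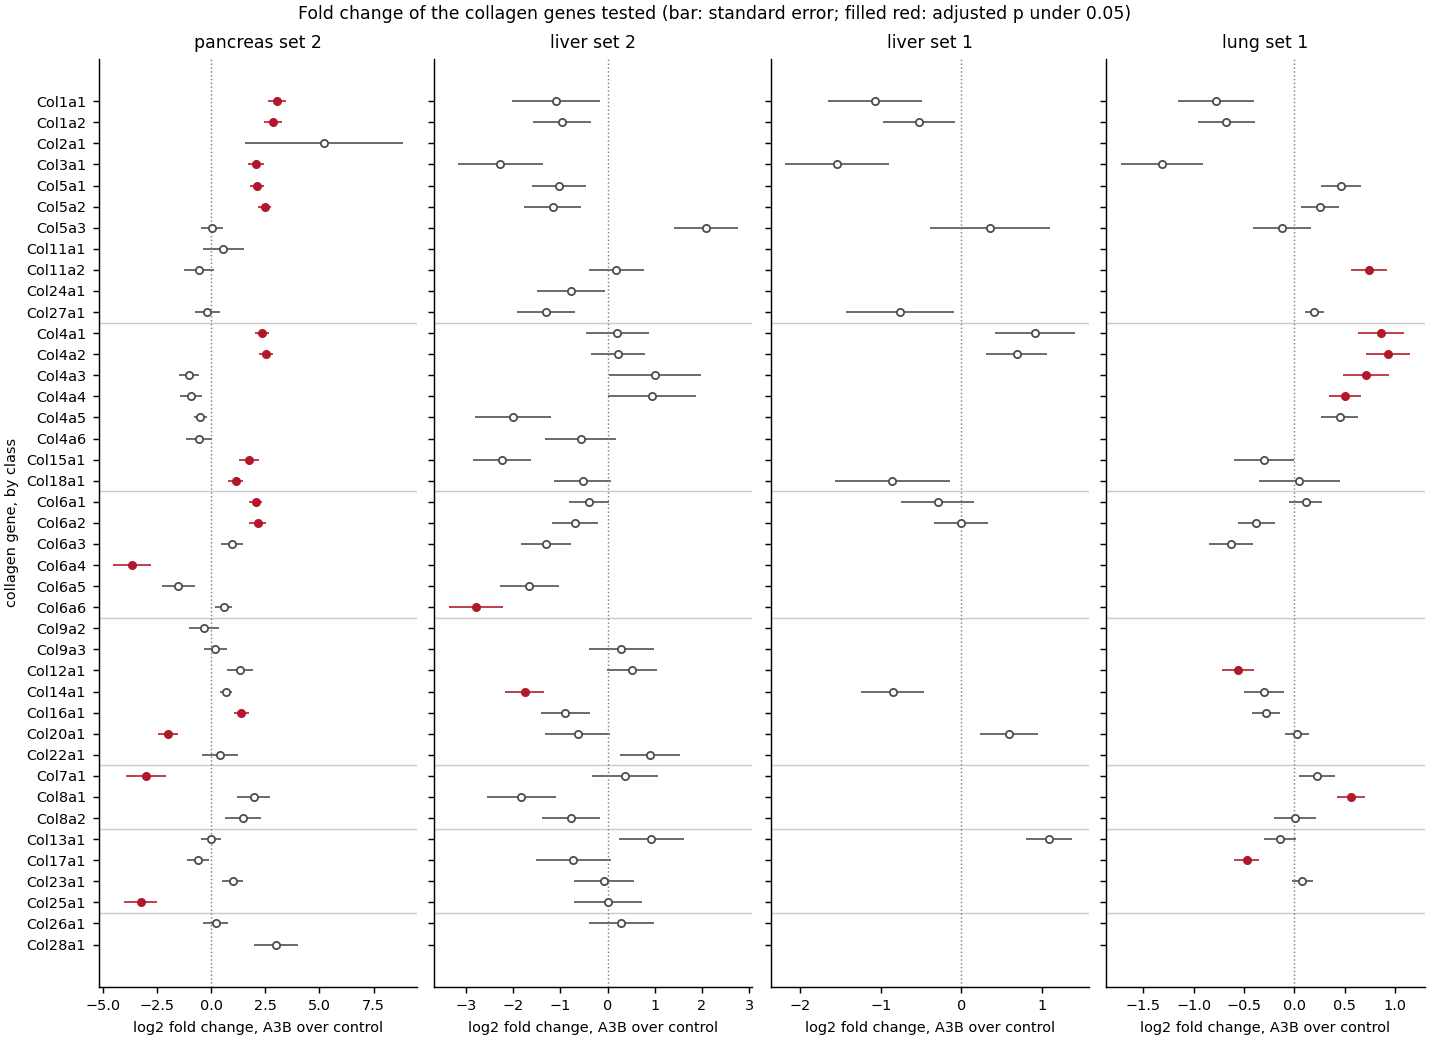
Log2 fold change of A3B over control (points) with its SE (bars) for every member tested, by collagen class and comparison; red filled points have an adjusted p under 0.05. Fibrillar chains reach 3.04 (Col1a1) among the called points in pancreas, while no fibrillar chain is called in either liver set.

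In the livers of set 2, most collagens showed no difference that passed the test, and the few calls were lower. Of 36 members tested, none was higher and 2 (5.56%) were lower, Col14a1 and Col6a6. Among all 17376 genes tested, 1.25% were higher and 2.41% lower. At an unadjusted p under 0.05, 1 member was higher and 8 lower, and DESeq2 called 1 higher. The median log2 fold change of the members was -0.67, beside 0.21 for all genes, and 23 of the 36 were negative. The members' median depended on single controls, at -0.06 without control 45 and -1.15 without control 168, and it was -0.21 with scaling by totals, which moved the all-gene median to 0.68.

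Col14a1 (chr15:55307750-55520803), which encodes a chain that coats fibrils, fell in A3B livers. It was at 2.63, 7.67 and 10.6 TPM in the lowest, median and highest A3B liver and 11.7 and 23.4 TPM in control livers. All 6 A3B samples were below both controls, and the log2 fold change was -1.76 ± 0.41 (adjusted p = 0.0484). The call was near the threshold and was lost without any of A3B livers 44, 125, 137 and 153 (adjusted p = 0.0645 to 0.0999), without control 45 (-1.35, adjusted p = 0.402) and without control 168 (-2.21, adjusted p = 0.139), as well as with scaling by totals (-1.28, adjusted p = 0.108) and with limma on TPM (-1.17, adjusted p = 0.133). Col6a6, a minor chain named here after its values were seen, was at 0.0133 to 0.0360 TPM in A3B and 0.0807 and 0.155 TPM in control livers (log2 fold change -2.79 ± 0.57, adjusted p = 0.0330). Its call was lost without A3B livers 44, 137 or 153 (adjusted p = 0.0693, 0.0803 and 0.0545), without control 45 (-3.34, adjusted p = 0.110) and without control 168 (-2.22, adjusted p = 0.348). In all, 7 members had every A3B liver below both controls in TPM (5.42% of all genes did), and 1 had every A3B liver above (24.3% of all genes).

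Of 9 fibrillar chains tested in these livers none was called, and 7 had negative log2 fold changes with a median of -1.03. Col1a1 was at 0.286, 0.954 and 5.01 TPM in A3B livers and 0.623 and 4.55 TPM in controls. A3B liver 49 was far above the other A3B livers, and control 45 far above control 168, so that groups overlapped widely (log2 fold change -1.09 ± 0.94, adjusted p = 0.519; 0.66 without control 45). Col3a1 was at 0.726, 2.77 and 18.02 TPM in A3B and 5.73 and 25.6 TPM in control livers (-2.27 ± 0.90, adjusted p = 0.175), again with liver 49 as the highest of the A3B samples. Without liver 49, Col3a1 was called lower (-3.12, adjusted p = 0.0351). Col27a1, at 0.748 to 5.10 TPM in A3B and 5.48 and 6.31 TPM in control livers, had all A3B livers below both controls without a call (-1.30 ± 0.62, adjusted p = 0.246). Positive values were those of Col11a2 (0.19) and of Col5a3, the remaining type V chain: all 6 A3B livers, at 2.05 to 14.3 TPM, were above the controls at 1.09 and 1.88 TPM, but the log2 fold change of 2.08 ± 0.68 did not pass the test (adjusted p = 0.112).

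Of 8 basement membrane chains in liver none was called. Col18a1 was at 128.8, 402.9 and 671.5 TPM in A3B livers and 341.7 and 504.9 TPM in controls (-0.53 ± 0.60, adjusted p = 0.639). The groups overlapped on both sides, and the lowest values were those of livers 49 and 48. Col15a1, at 0.695 to 1.70 TPM in A3B and 1.88 and 4.80 TPM in control livers, had all 6 A3B samples below both controls without passing the test (-2.23 ± 0.61, adjusted p = 0.0728), though DESeq2 called it lower (-2.30, adjusted p = 0.0100). Col4a1 and Col4a2 had log2 fold changes of 0.21 ± 0.67 and 0.22 ± 0.57. Liver 48, at 3.57 and 1.90 TPM, was the only A3B liver below the controls for both, and it was also the liver with the fewest endothelial markers; the part of endothelial RNA in these values was not tested.

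Among type VI and other chains in liver, Col6a1, Col6a2 and Col6a3 had log2 fold changes of -0.40, -0.70 and -1.30 and none passed the test, though Col6a3 was called lower without liver 49 (-1.66, adjusted p = 0.0461). Col13a1, a transmembrane collagen, was among the 5 most abundant members of A3B livers, at 1.16 to 15.6 TPM against 3.34 and 4.02 TPM in controls (0.93 ± 0.69, adjusted p = 0.449). Untested for low counts were Col2a1, Col6a4, Col9a1, Col9a2, Col10a1, Col11a1, Col19a1 and Col28a1. The lists of enzymes, receptors, basement membrane partners and fibril binders had no gene past the test in either direction, out of 31, 10, 15 and 14 tested.

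The 3 A3B and 3 control livers of set 1 came from other mice and were measured in another way. Only 13 members had a mean of at least 1 TPM, and none was called in either direction (limma on log2(TPM + 1), Benjamini-Hochberg adjustment over 11507 genes), where 6.07% of all genes were higher and 1.86% lower. At an unadjusted p under 0.05, 1 member was higher, Col13a1, and 1 lower, Col3a1. The median log2 fold change of the 13 was -0.29, beside 0.39 for all genes. It had no stable direction, since leaving out 1 liver gave -0.68 (without A3B liver 70) to 0.06 (without control 11), and no filter on low values gave -0.01. Fibrillar chains had a median of -0.76 over 5 tested, and Col4a1 and Col4a2 had 0.92 and 0.69.

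Col13a1 was at 1.72, 2.48 and 2.88 TPM in A3B livers and 0.485, 0.502 and 0.716 TPM in controls of set 1. All 3 A3B livers were above all controls, with a difference of 1.09 ± 0.29 on the log2(TPM + 1) scale (adjusted p = 0.0566). Col3a1 was at 0.223, 4.17 and 4.33 TPM in A3B and 5.47, 7.03 and 15.1 TPM in control livers, and all 3 A3B livers were below (-1.55 ± 0.64, adjusted p = 0.143). Col18a1 was at 19.9, 102.4 and 157.2 TPM in A3B and 97.1, 131.2 and 155.1 TPM in control livers (-0.86 ± 0.71, adjusted p = 0.423), so its groups overlapped, and A3B liver 28 had the low value. Col14a1, the gene called lower in set 2, was at 0.379, 0.839 and 2.47 TPM in A3B and 2.29, 2.55 and 3.45 TPM in controls here (-0.85 ± 0.40, adjusted p = 0.178).

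Across both liver sets, 13 members were tested in each, and 12 had the same sign: 8 were negative in both and 4 positive in both. The mice differed between the sets, and genes are not independent replicates. Of the pathway lists, a single gene was called in the livers of set 1, Lamc1, a laminin chain, at 1.93 (adjusted p = 0.0314). Its call was lost without controls 91 or 92 (adjusted p = 0.170 and 0.159) or without A3B liver 23 (adjusted p = 0.0741), and with no filter on low values (adjusted p = 0.0702). Marker sums in liver moved as well: in set 2, hepatocyte markers summed to 34070 to 84090 TPM in A3B and 89420 to 139300 TPM in control livers. In set 1 these sums were 2337 to 3982 TPM in A3B and 4265 to 5645 TPM in control livers, fat cell markers summed to 686.9 to 815.6 and 29.5 to 30.6 TPM, and mesothelial markers to 21.6 to 31.8 and 6.25 to 10.5 TPM, all without overlap. The part of these shifts in the collagen values was not tested. Of the 6 fat cell markers, those of lipid droplets made up much of the sum in A3B livers of set 2, with Plin4 at 24.7 and 0.612 TPM and Cidec at 62.9 and 5.03 TPM on average in A3B and control livers, whereas Adipoq was at 0.332 and 0.121 TPM and Lep under 0.1 TPM in every liver, and in set 1 both were under 0.1 TPM.

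In lung, 4 of 5 type IV chains tested, Col4a1, Col4a2, Col4a3 and Col4a4, rose in A3B mice, each by less than 1 on the log2 scale, and no member was called higher once A3B lung 70 was left out. The type I and type III chains did not pass the test and had lower values in A3B lungs. Of 28 members tested, 6 (21.4%) were higher and 2 (7.14%) lower, where 16.1% and 20.8% of all 13651 genes tested were higher and lower. The median log2 fold change of the members was 0.04, beside -0.06 for all genes, and it was -0.01 to 0.13 with 1 lung left out. Of 8 fibrillar chains 1 was higher (Col11a2), and of 13 other chains 1 was higher (Col8a1) and 2 lower (Col12a1 and Col17a1).

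Col4a2 was at 72.2, 88.0 and 99.3 TPM in A3B lungs and 35.5, 40.6 and 61.0 TPM in control lungs. All 3 A3B lungs were above all controls, and Col4a2 rose by 0.93 ± 0.22 on the log2(TPM + 1) scale (adjusted p = 0.0187). Col4a1 was at 97.9, 118.8 and 129.1 TPM in A3B and 51.1, 53.8 and 89.0 TPM in control lungs, and rose by 0.86 ± 0.23 (adjusted p = 0.0268). The ranges of this head-to-head pair were apart in the same way, with control 88 the nearest to the A3B lungs.

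Col4a3 and Col4a4 (chr1:82586921-82722059 and chr1:82448423-82586849), a second head-to-head pair that forms the alveolar and glomerular basement membrane with Col4a5, also rose. Col4a3 was at 17.5, 18.1 and 19.9 TPM in A3B and 7.54, 10.9 and 15.5 TPM in control lungs (0.71 ± 0.23, adjusted p = 0.0498), and Col4a4 was at 13.5, 14.1 and 15.0 TPM and 7.77, 9.51 and 12.3 TPM (0.50 ± 0.16, adjusted p = 0.0464). The A3B lungs lay close to each other and above all controls for each gene. Each call was near the threshold and was lost in 5 of the 6 fits that left out 1 lung (adjusted p up to 0.125 and 0.123). For Col4a5 the difference of 0.45 ± 0.18 did not pass the test (adjusted p = 0.0940). The summed type IV level was 208 to 268 TPM in A3B and 106 to 185 TPM in control lungs.

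Col11a2, a fibrillar chain mainly of cartilage, was at 3.68, 5.04 and 5.34 TPM in A3B and 1.81, 2.30 and 3.13 TPM in control lungs, and rose by 0.74 ± 0.18 (adjusted p = 0.0213). Col8a1, a short-chain network collagen of vessel walls, rose by 0.56 ± 0.14 (adjusted p = 0.0209), with 1.48, 1.66 and 1.83 TPM against 0.517, 0.916 and 1.001 TPM. Both genes had A3B values above all controls. Col12a1, which decorates fibrils, fell by 0.56 ± 0.16 (adjusted p = 0.0332), from 2.68, 3.44 and 4.17 TPM in controls to 1.60, 2.17 and 2.22 TPM. Col17a1, a hemidesmosome component of basal epithelial cells, fell by 0.47 ± 0.13 (adjusted p = 0.0268), from 1.71, 2.33 and 2.46 TPM to 1.20, 1.21 and 1.40 TPM.

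The major fibrillar chains of lung were at lower values in A3B samples without a call in the test as reported. Col3a1 was at 27.3, 34.2 and 54.2 TPM in A3B and 59.6, 87.2 and 157.7 TPM in control lungs (-1.32 ± 0.41, adjusted p = 0.05002). Its groups did not overlap, and the adjusted p missed the threshold narrowly. Col3a1 was called lower with a pseudocount of 0.1 (adjusted p = 0.0490), with TMM factors (0.0483), without control 87 (-1.64, adjusted p = 0.0310) and without A3B lung 70 (-1.58, adjusted p = 0.04985). Col1a1, at 60.6, 68.0 and 92.8 TPM in A3B and 78.3, 116.6 and 213.9 TPM in control lungs, had overlapping groups (-0.78 ± 0.38, adjusted p = 0.152) and was called lower without control 87 (-1.11, adjusted p = 0.0448). Col1a2 was at 42.9, 47.2 and 65.8 TPM and 66.6, 67.1 and 124.6 TPM (-0.68 ± 0.28, adjusted p = 0.105). Control 88 held the highest value of all 3 genes, and the summed fibrillar level was 166 to 242 TPM in A3B and 221 to 521 TPM in control lungs.

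Of the type VI chains, Col6a1 was at 152.1, 175.3 and 201.8 TPM in A3B and 139.2, 154.1 and 197.9 TPM in control lungs (0.11 ± 0.17, adjusted p = 0.618). Col6a2 (-0.38 ± 0.18, adjusted p = 0.148) and Col6a3 (-0.63 ± 0.22, adjusted p = 0.0590) had all A3B lungs below all controls without a call, though Col6a3 was called lower without A3B lung 74 (-0.79, adjusted p = 0.0414). In TPM, 7 members had every A3B lung above and 6 every A3B lung below all controls, 25.0% and 21.4% of those tested, where 23.3% and 30.6% of all genes did. Untested for low levels were 16 members: Col2a1, Col4a6, Col6a4, Col6a5, Col6a6, Col9a1, Col9a2, Col9a3, Col10a1, Col11a1, Col19a1, Col22a1, Col24a1, Col25a1, Col26a1 and Col28a1.

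The lung calls were sensitive to leaving out single samples. With A3B lung 70 left out no member was called higher, and 1 was without A3B lung 69 or control 87, 2 without control 91 and 3 without A3B lung 74. Among all genes, higher calls fell as well, from 2191 to 1384 without A3B lung 70 and 1452 without A3B lung 69. They were 1811 without control 87, 1468 without control 91 and 1788 without A3B lung 74. Over the fits that lost the call of Col4a2, its log2 fold change was 0.77 to 0.91 and its adjusted p 0.0522 to 0.0606. Control 87 was the control labelled with the driver alone, and without it the difference of Col4a1 was 0.75 (adjusted p = 0.0728) and that of Col4a2 was 0.87 (adjusted p = 0.0522). No member was called lower without control 88 or without A3B lung 69. Both lower calls were also lost without A3B lung 70, where Col3a1 was called instead, and without A3B lung 74, where Col6a3 was. Without control 91 only Col12a1 was called lower.

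Endothelial markers, the cells around which much of the lung type IV collagen lies, summed to 3019 to 3511 TPM in A3B and 1774 to 2081 TPM in control lungs, with 2 of 10 tested higher and 3 lower. Fibroblast markers summed to 380 to 434 and 486 to 645 TPM, and smooth muscle markers to 247 to 359 and 374 to 510 TPM. No endothelial marker was under 0.1 TPM in all lungs, and of the fibroblast markers Lrat was. These sums did not overlap between groups, and their part in the collagen result was not tested. Of 14 basement membrane partners tested 7 were higher and none lower, led by Lamc3 (2.06), Nid2 (1.02), Lama5 (1.02) and Lamc1 (0.95). Of 28 enzymes tested, 7 were higher and 8 lower, with the cross-linking oxidase Lox at 2.43 ± 0.20, the chaperone Fkbp14 at 1.83 ± 0.20, the procollagen processing enhancer Pcolce at -1.64 ± 0.16 and the transferase Colgalt2 at -0.80 ± 0.11. Of 7 receptors tested, the inhibitory receptor Lair1 fell (-0.59), and of 13 fibril binders tested Thbs1 rose (2.27) while Tnxb (-0.82) and Sparc (-0.41) fell. With 1 of the 6 lungs left out, the call of Sparc was lost in 4 fits (adjusted p up to 0.0914), and those of Lair1 and Nid2 in 3 each (up to 0.0609 and 0.0644).

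Pancreas and liver of set 2 came from largely the same mice, and the difference between their responses was tested directly, as the interaction of group and tissue in a fit of all 16 samples. The A3B effect was higher in pancreas than in liver for 14 of 41 members tested (34.1%) and lower for none, where 6.87% and 5.02% of all 19927 genes tested were called. At an unadjusted p under 0.05, 3 members were lower, and DESeq2 called 2 lower. The median difference of the members was 1.28, beside 0.03 for all genes. By class, 5 of 11 fibrillar, 2 of 8 basement membrane and 7 of 22 other chains were called.

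The fibrillar chains called were Col3a1 with a difference in log2 fold change of 4.52 ± 1.22 (adjusted p = 0.0269), Col1a1 with 4.31 ± 1.22 (adjusted p = 0.0326), Col1a2 with 3.99 ± 0.83 (adjusted p = 0.00857), Col5a2 with 3.81 ± 0.70 (adjusted p = 0.00541) and Col5a1 with 3.30 ± 0.71 (adjusted p = 0.0103). These are the chains that rose in pancreas and had negative values in liver. Of basement membrane chains, Col15a1 differed by 4.15 ± 0.88 (adjusted p = 0.00963) and Col4a2 by 2.48 ± 0.70 (adjusted p = 0.0311). For Col4a1, the partner of Col4a2, the difference of 2.3 ± 0.79 did not pass the test (adjusted p = 0.0677). Col4a1 was called with DESeq2 (2.22, adjusted p = 0.0313) and with scaling by totals (3.88, adjusted p = 0.00232). It was also called without A3B liver 48 (2.07, adjusted p = 0.0108) or 49 (2.45, adjusted p = 0.0431). The other chains called in the main fit were Col8a1 (3.96), Col6a6 (3.54), Col6a2 (3.01), Col6a1 (2.63), Col14a1 (2.62), Col16a1 (2.46) and Col6a3 (2.44), so that all 3 main type VI chains were among them.

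With the mouse as a replicate block, 12 members were higher and 1, Col7a1, lower. The calls of Col1a1 (4.20, adjusted p = 0.0664) and Col8a1 (3.38, adjusted p = 0.0805) were lost. The count of 14 depended on the controls, most on those of mouse 45. Leaving out 1 of the 2 controls of a tissue left a single control there. Fewer genes among all tested were called higher in each such fit, so the fall was not confined to the members. Without control liver 45 the difference was 2.48 for Col1a1 and 3.20 for Col3a1, and without control pancreas 45 it was 4.30 and 4.32. The call of Col4a2 was lost when any of the 4 control samples was left out (adjusted p = 0.0617 to 0.152), and that of Col6a3 with nearly any sample left out (adjusted p = 0.0536 to 0.258). Of 35 members tested in both tissues, 23 lay above the line of equal change (the plot of pancreas against liver).

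**Figure D3:**
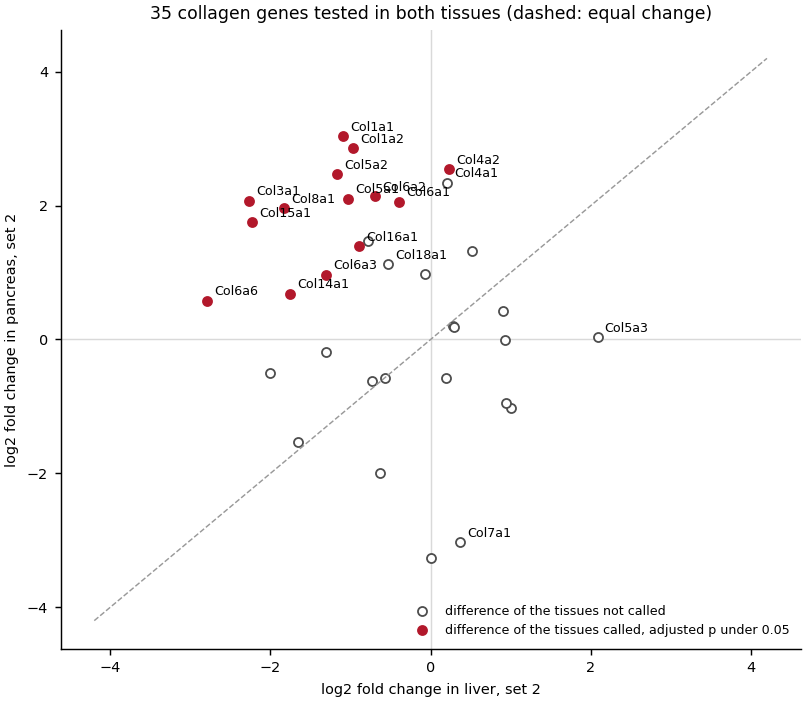
Log2 fold change of A3B over control in pancreas (vertical axis) against that in liver of set 2 (horizontal axis) for 35 collagen genes tested in both, with the line of equal change; red points have an adjusted p under 0.05 for the difference. The called genes lie above the line, with Col1a1 at 3.04 in pancreas and -1.09 in liver.

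The files of set 2 give transcripts, so the starts of Col18a1 could be told apart as far as the assignment of reads to transcripts allows. The internal start is represented by Col18a1-201 and Col18a1-203 and the distal start by Col18a1-202. In control livers the internal start made up 70.5% (mouse 45) and 66.7% (mouse 168) of the level from both. In 5 A3B livers it made up 67.4% to 75.9%, and in A3B liver 48 it made up 12.5%. That liver had 19.5 TPM from the internal and 136.4 TPM from the distal start, whereas the other A3B livers had 82.6 to 490.8 TPM and 33.6 to 169.4 TPM.

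In pancreas the internal start was the lesser one, with 11.1% to 28.1% in A3B samples and 3.83% and 20.2% in controls. The level from the distal start was 6.01 to 17.4 TPM in A3B and 0.937 and 1.46 TPM in control pancreases, so the groups did not overlap. The level from the internal start was 1.29 to 5.67 TPM and 0.0374 and 0.370 TPM. No test was made on transcripts, whose levels are estimates from shared reads. The windows of both starts are those printed above, of which the distal one holds GGGCGG.

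**Figure D4:**
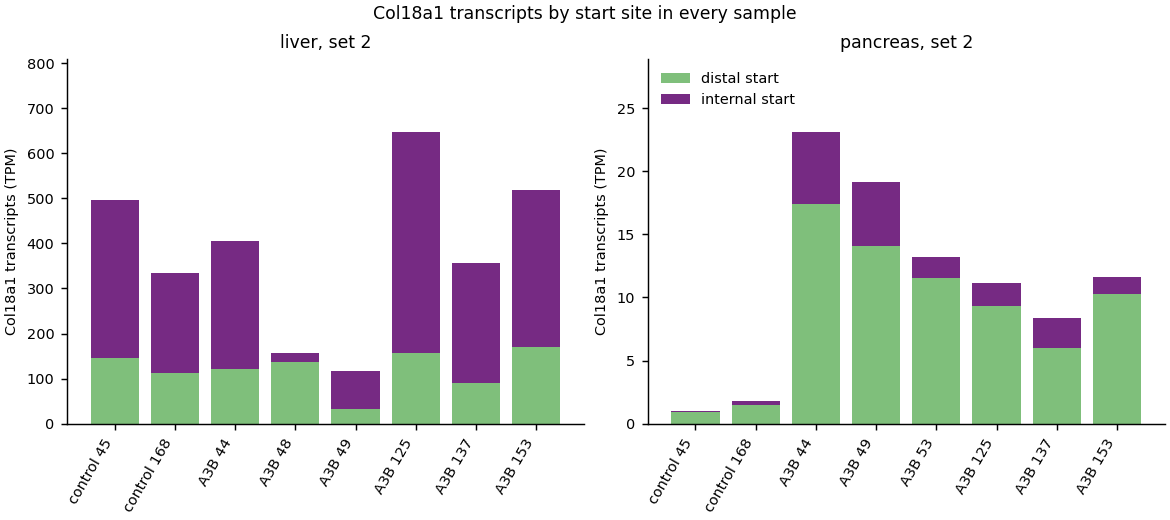
Level in TPM of Col18a1 transcripts from the distal and the internal start, stacked for each liver and pancreas sample of set 2. The internal start makes up 66.7% to 75.9% in all livers but A3B liver 48, where it makes up 12.5%, and 3.83% to 28.1% in pancreas.

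Col9a1, Col10a1 and Col19a1 were not tested in any comparison, and their highest values in any sample were 0.0578, 0.0207 and 0.0397 TPM. These encode chains of cartilage and of rare fibril-associated collagens. The other 41 members were tested in at least 1 comparison.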

How the data were processed

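Total RNA of bulk liver, pancreas and lung was sequenced with a stranded kit. The files of set 2 have the columns of kallisto, which the authors name for differential expression, and per the study's methods the authors took TPM levels from a read-count matrix made with GenomicAlignments and GenomicFeatures, which was taken to be the table of set 1. The submitters' processing notes name GRCm38 and mm10. The deposited estimated counts and TPM of set 2 were summed per gene symbol with GENCODE M21 (116728 of 119414 transcripts matched, and 0.225% to 1.46% of the estimated counts had no gene), and the counts were rounded. The deposited TPM of set 1 has 24849 rows, of which 4 with a repeated name were left out. Its sample names contain the word dedup, so duplicate reads may have been removed there. TPM levels of set 1 and set 2 are therefore not on a common scale.

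Set 2 was tested with edgeR 4.0.16 (TMM, filterByExpr, robust quasi-likelihood fit, two-sided) in R 4.3.3, within each tissue and, for the difference between tissues, in all 16 samples. Set 1 was tested with limma 3.58.1 (trend, robust) on log2(TPM + 1), for genes averaging 1 TPM or more. A pseudocount of 1 understates changes of low genes. P-values were adjusted by Benjamini-Hochberg over all genes tested, with 0.05 as the threshold. Both tests were checked on simulated data with as many rises as falls, which does not cover the shift in composition of the pancreas libraries. Alternatives were DESeq2 1.42.0, scaling by totals, limma on TPM, no filter, a pseudocount of 0.1, TMM in set 1, the mouse as a block and leaving out each sample.

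Replicate numbers were read as mouse numbers, so equal numbers in liver and pancreas of set 2 were taken to mark the same animal, although the genotype labels of mice 44, 137, 45 and 168 differ between their tissues. The deviations of a mouse from its group means correlated between tissues with r = 0.212 (mouse 44), 0.279 (137), -0.00444 (49), 0.246 (125) and 0.0935 (153) in A3B mice, and 0.00751 for controls 45 and 168, which share 1 value as a group of 2. Samples were grouped by title where labels disagreed. The members, classes, marker lists and pathway lists were chosen with earlier results of these data known. Named were 13 main chains, the 5 most abundant members of each tissue and set, every member past the threshold that averaged 1 TPM or more in a group (members called below that level are named too, as an addition to the rule), and up to 4 genes of each pathway list by p, of which 1 is not reported here. Groups have 2 to 6 mice, and p-values measure the spread between them.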

Additional observations from a re-analysis of the deposited data

Results flagged for a closer look

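Of 34 groups of 6 samples that were examined, 4 had a sample whose distance to its nearest neighbour was above Dixon's 95% critical value as a share of the group's range. Chance flags about 1 in 20 groups. A3B liver 49 was high for Col1a1 (5.01 TPM) and for Col3a1 (18.02 TPM). A3B liver 48 was low for Col4a2 (1.90 TPM) and for the share of Col18a1 from its internal start (12.5%).

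The A3B effect differed between pancreas and liver in the test of the interaction for 14 members, as differences in log2 fold change. The fibrillar chains were Col3a1 (4.52), Col1a1 (4.31), Col1a2 (3.99), Col5a2 (3.81) and Col5a1 (3.30). The basement membrane chains were Col15a1 (4.15) and Col4a2 (2.48). The other chains were Col8a1 (3.96), Col6a6 (3.54), Col6a2 (3.01), Col6a1 (2.63), Col14a1 (2.62), Col16a1 (2.46) and Col6a3 (2.44). Their values within each tissue are given with the comparisons.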

How the results depend on the processing

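In liver of set 2, 0 members were higher and 2 lower. DESeq2 gave 1 higher and 3 lower, scaling by totals 1 lower and limma on TPM 0 lower, and leaving out 1 sample gave 0 to 1 higher and 0 to 5 lower. In pancreas, 12 were higher and 4 lower of 40 tested. Among all genes there, scaling by totals called 13483 of 19142 higher and 210 lower. Limma on TPM tested 24 members, and called 11405 of all 13597 genes higher and 152 lower. The counts that follow are of members. Scaling by totals gave 28 and 0, limma on TPM 22 and 0, and leaving out both A3B pancreases with conflicting labels gave 2 lower, while leaving out 1 sample gave 10 to 14 and 2 to 4. In lung, 6 were higher and 2 lower, no filter gave 3 and 1, a pseudocount of 0.1 or TMM scaling gave 3 lower, and leaving out 1 sample gave 0 to 8 and 0 to 3. In liver of set 1 the counts were 0 throughout. For the difference between pancreas and liver, 14 were higher and 0 lower. The mouse as a replicate block gave 12 and 1, DESeq2 2 lower, totals 20 higher, and leaving out 1 sample 2 to 16 and 0 to 1. Beside the calls named in the text, the block changed no call of a named gene. No paired analysis was possible because of different mice in the groups of a tissue, so the block was fitted only across tissues.

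Reversed directions were few. In pancreas, scaling by totals gave 0.35 for Col20a1 and 0.027 for Itga10, and in liver of set 2 it gave 0.092 for Col6a1. Leaving out 1 sample gave -1.99 to 0.66 for Col1a1, -0.29 to 0.71 for Col4a1, -0.15 to 0.50 for Col4a2 and -0.88 to 0.061 for Col6a1 in liver of set 2. The same gave -1.45 to 0.016 for Col18a1, -0.68 to 0.072 for Col6a1 and -0.20 to 0.24 for Col6a2 in liver of set 1, and -0.23 to 0.38 for Col18a1 in lung. The cause was not tested. Over 105 results for 50 named genes, 1293 fits under alternatives kept direction and side of the threshold in 1114, lost the call in 143, gained it in 21 and changed direction in 15. The groups of 2 controls in set 2 limit what each comparison can show, the depth of set 1 is unknown, and estimated counts of transcripts that share sequence carry an error that was not measured.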
